A study of Mus musculus with 2 samples.

Results

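A group of 10 mature miRNAs with known roles in brown and white adipocytes was examined in extracellular vesicles (EVs) from serum, the small membrane-bound carriers that tissues shed into the circulation. The group comprised both arms of miR-378a, miR-455 and miR-335, and the 3p arms of miR-193a, miR-193b, miR-365 and miR-328, taken by name from the 1847 mouse miRNAs listed for each library. All 10 were listed in both libraries, and none was at the lowest listed value, a floor that stands for fewer than 10 counts. The study compared 1 iFIRKO-labelled library (genotype Adipoq-CreERT2; Insr flox/flox) with 1 control-labelled library (genotype WT in the labels, whereas the methods of the study describe flox/flox mice without Cre). The adiponectin promoter drives a tamoxifen-inducible Cre in these mice, so that the insulin receptor is lost from white and brown adipocytes alike after induction. Mice of both groups were male, were injected from 7 weeks of age with 5 daily doses of 100 mg/kg tamoxifen, and were examined 3 days after the last dose. Each library was made from the pooled serum of several mice. Therefore no replicate exists, no test between genotypes was possible, and every interval below covers counting error only.

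miRNAs are short RNAs cut from a hairpin precursor that has a 5p and a 3p arm, and usually 1 arm is kept as the guide strand while the other is degraded. The guide pairs with target mRNAs mainly through its seed (bases 2 to 8). In brown adipocytes, which burn fuel to make heat, miR-193b, miR-365 and miR-455 were described as promoting differentiation by lowering the repressor Runx1t1, and miR-328 as acting on Bace1. miR-378a lies in an intron of Ppargc1b, a coactivator gene of mitochondrial metabolism, and both of its arms were linked to fat metabolism. miR-335 lies in an intron of Mest, a gene that marks enlarging white adipocytes, and was linked to lipid loading of fat cells. Adipocytes are not the only source of such miRNAs, and miR-378a is also abundant in muscle and liver.

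RefSeq mature sequences (GRCm38.p6) were found for 7 of the 10 miRNAs and are shown because they decide which miRNAs can be told apart by sequence. Capitals mark the seed, and all are written 5′ to 3′.

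mmu-miR-193a-3p: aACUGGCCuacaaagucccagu
mmu-miR-193b-3p: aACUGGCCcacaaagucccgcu
mmu-miR-365-3p: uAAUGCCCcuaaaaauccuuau
mmu-miR-455-5p: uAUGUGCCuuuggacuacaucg
mmu-miR-455-3p: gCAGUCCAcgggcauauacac
mmu-miR-335-5p: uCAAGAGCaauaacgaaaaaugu
mmu-miR-335-3p: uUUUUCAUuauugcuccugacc

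mmu-miR-193a-3p and mmu-miR-193b-3p carried the same seed and differed at 3 of 22 bases (U9C, A20G and G21C, the miR-193a-3p base first and counted from the 5′ end). None of the other 5 shared its seed with another of these 7. Among all listed miRNAs with a RefSeq sequence, only miR-5129-3p, from outside the group, carried a seed of these 7, that of mmu-miR-455-5p. The seeds of mmu-miR-328-3p and of both miR-378a arms were not searched. miR-5129-3p stood at the floor in the control-labelled library and was counted 24 times in the other one.

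The genes of miR-193 and miR-365 lie in 2 clusters. On GRCm38 (GENCODE), Mir193a lies at chr11:79711969-79712034 and Mir365-2 follows on the same strand at chr11:79726400-79726511, with 14365 bases between them and outside protein-coding genes. Mir193b lies at chr16:13449523-13449601 and Mir365-1 follows at chr16:13453840-13453926, with 4238 bases between them, both within an intron of the antisense transcript Gm15738 on the opposite strand. Mature mmu-miR-365-3p is identical from both loci, so its counts cannot be divided between the clusters. The 5p arms of the 2 miR-365 loci do differ, at 3 of 23 bases (U10C, G11A and A19C, the miR-365-1-5p base first), and these 2 arms are shown because they alone separate the loci in sequence.

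mmu-miR-365-1-5p: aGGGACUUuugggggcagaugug
mmu-miR-365-2-5p: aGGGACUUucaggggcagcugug

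Mir455 lies at chr4:63256851-63256932 in an intron of the collagen gene Col27a1. Mir335 lies at chr6:30741299-30741396 in an intron of Mest. Mir328 lies at chr8:105308364-105308460 on the minus strand and overlaps an exon of Elmo3 on the opposite strand. The intronic hairpins, Mir378a in Ppargc1b included, lie on the strand of their host gene.

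Depth differed 1.71-fold, with 3817902 counts in the control-labelled and 2233498 in the iFIRKO-labelled library. Levels are given as counts per 1000000 (CPM). Each ratio is the iFIRKO-labelled level divided by the control-labelled level, values of a pair are given with control first, and the range in brackets after a ratio is its 95% interval. The study used a fold limit of 1.5, and of all 1847 miRNAs 66.3% were over 1.5-fold higher in the iFIRKO-labelled library and 3.03% over 1.5-fold lower. Over the whole table the log2 ratio had a median of 0.88, which fell with abundance. By mean count, the median was 1.01 for the 1350 miRNAs from 10 to under 100, 0.53 for the 302 from 100 to under 1000, and -0.07 for the 118 at 1000 or more. TMM scaling, a trimmed mean over all miRNAs, would divide every ratio by 1.81 and the study's reference miR-148a-3p would divide it by 1.16. Loss of the insulin receptor gene cannot be read from any miRNA, which leaves no check of the labels by the deletion itself. miR-144-3p, miR-486a-3p, miR-451a and miR-16-2-3p are erythroid miRNAs that the study singled out for follow-up in iFIRKO mice. The study reported them as increased in serum EVs of iFIRKO mice, and most EV-miRNAs as decreased. Here they had ratios of 0.506, 0.549, 0.409 and 0.557, and most miRNAs were higher in the iFIRKO-labelled library. Both directions are the reverse of those the study reported. Whether the labels of the libraries are the right way round could not be settled from the files, and every ratio below would be inverted if they were exchanged. No miRNA is known to be particular to EVs, so the labelled sample type could not be checked either.

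The question here was whether miRNAs tied to adipocytes differed in level in serum EVs after adipocytes lost the insulin receptor. The 10 miRNAs together held 0.574% (95% Wilson interval 0.566 to 0.581) of the control-labelled library and 0.939% (0.926 to 0.952) of the iFIRKO-labelled library. This difference came almost wholly from mmu-miR-328-3p, since the other 9 held 0.247% (0.242 to 0.252) and 0.263% (0.256 to 0.270). In single miRNAs, mmu-miR-328-3p, mmu-miR-335-3p and mmu-miR-193a-3p were over 1.5-fold higher in the iFIRKO-labelled library and mmu-miR-335-5p was over 1.5-fold lower. With TMM scaling 0 of the 10 stayed above that limit and 5 lay under the lower one, against 21% and 19.5% of all miRNAs. The lower share was 86.4% among miRNAs with a mean count of 1000 or more, so the 19.5% is not matched to the 10 in abundance. More or fewer vesicles from a cell type and more or less miRNA per vesicle cannot be told apart in such libraries.

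The levels spanned a wide range. In the control-labelled library, the order from the highest was mmu-miR-328-3p, mmu-miR-378a-3p, mmu-miR-335-5p, mmu-miR-455-5p, mmu-miR-378a-5p, mmu-miR-365-3p, mmu-miR-455-3p, mmu-miR-335-3p, mmu-miR-193b-3p and mmu-miR-193a-3p. Neighbours in this order had separate 95% intervals except mmu-miR-378a-5p with mmu-miR-365-3p and the 2 miR-193 arms with each other. The order in the iFIRKO-labelled library was the same but for the 2 miR-193 arms, which changed places with overlapping intervals. There the interval of mmu-miR-455-5p overlapped those of mmu-miR-335-5p and mmu-miR-378a-5p, which were separate from each other. These levels are counts, which also depend on how well each sequence is captured in a library.

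**Figure D1:**
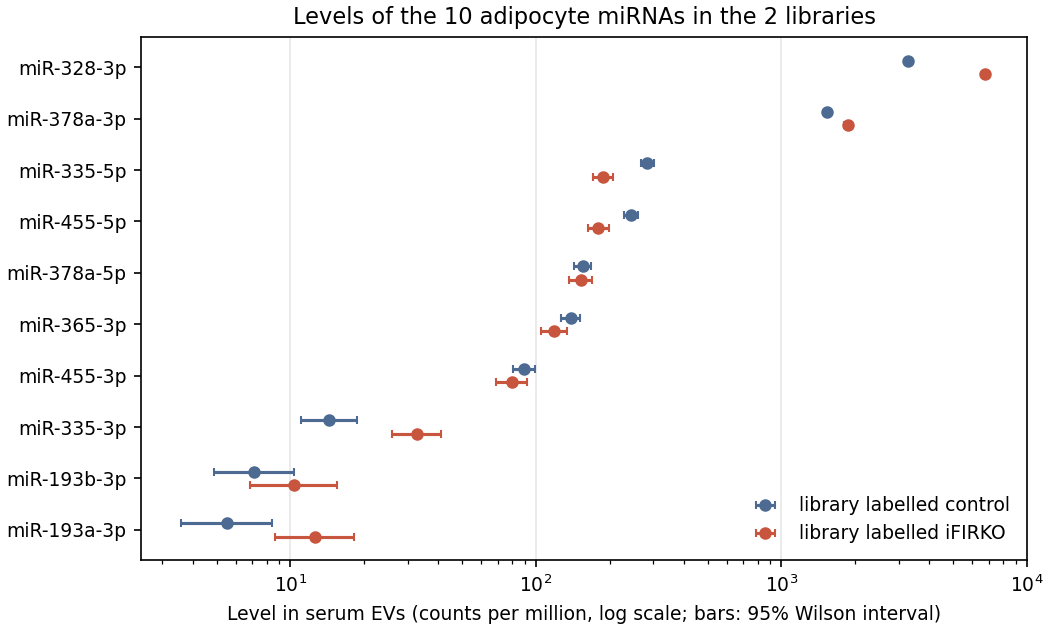
Level of each of the 10 miRNAs in CPM (log axis) in the control-labelled library (blue) and the iFIRKO-labelled library (red), with 95% Wilson intervals. mmu-miR-328-3p stood highest in both libraries and lay at 3267 and 6758 CPM, while the 2 miR-193 arms lay lowest, at 5.50 to 12.5 CPM.

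mmu-miR-328-3p, described as favouring brown adipocyte commitment, was the most abundant of the group. It was counted 12474 times (3267 CPM) in the control-labelled library, where it ranked 45th of all miRNAs, and 15093 times (6758 CPM) in the iFIRKO-labelled one, where it ranked 29th. Its ratio was 2.07 (2.02 to 2.12). Of the 118 miRNAs with a mean count of 1000 or more, 3 (2.54%) were over 1.5-fold higher and 9.32% over 1.5-fold lower, and mmu-miR-328-3p had the highest ratio of the 118. The other two were miR-6377, at 1.81, and the hepatocyte miRNA miR-122-5p, at 1.71. With miR-148a-3p as reference the ratio of mmu-miR-328-3p was 1.78, from 0.509 (0.498 to 0.520) and 0.904 (0.884 to 0.924) counts per count of miR-148a-3p. With TMM scaling it was 1.14, while 0 of the 118 were then over 1.5-fold higher. The other arm, mmu-miR-328-5p, was also higher, counted 70 times (18.3 CPM) and 141 times (63.1 CPM), giving 3.44 (2.57 to 4.65). Thus both arms of this hairpin were higher in the iFIRKO-labelled library on the deposited scale.

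mmu-miR-378a-3p, the main arm of the Ppargc1b hairpin, was counted 5851 times (1533 CPM) in the control-labelled library and 4151 times (1859 CPM) in the iFIRKO-labelled one. Its ratio of 1.21 (1.17 to 1.26) was above 1 but short of 1.5-fold. This direction depended on the scaling, as the ratio was 0.671 with TMM. With miR-148a-3p as reference it was 1.04, from 0.239 (0.232 to 0.245) and 0.248 (0.240 to 0.257) counts per count of miR-148a-3p, and these intervals overlapped. mmu-miR-378a-5p was counted 593 times (155 CPM) and 340 times (152 CPM), giving 0.980 (0.855 to 1.12). No difference was thus detectable at this depth on the deposited scale, but with TMM scaling the ratio of mmu-miR-378a-5p was 0.542. The counts of mmu-miR-328-3p per count of mmu-miR-378a-3p were 2.13 (2.07 to 2.20) and 3.64 (3.51 to 3.76), so the 2 most abundant miRNAs of the group differed between the libraries to unequal degrees.

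Related miR-378 names, picked after their values were seen, had ratios from 0.741 to 1.19, against 1.21 for mmu-miR-378a-3p. miR-378b was counted 454 and 263 times, giving 0.990 (0.847 to 1.16). miR-378c was counted 408 and 284 times, giving 1.19 (1.02 to 1.39), and miR-378d was counted 60 and 26 times, giving 0.741 (0.449 to 1.19). How reads were divided among names with similar sequences was not given in the sources used here, so the separate miR-378 values are uncertain.

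The miR-193 3p arms were rare in serum EVs. mmu-miR-193a-3p was counted 21 times (5.50 CPM) in the control-labelled library and 28 times (12.5 CPM) in the iFIRKO-labelled one, giving 2.28 (1.25 to 4.22). With TMM scaling its ratio was 1.26, a direction within counting error. mmu-miR-193b-3p was counted 27 times (7.07 CPM) and 23 times (10.3 CPM), giving 1.46 (0.798 to 2.64), an interval that included 1. mmu-miR-193a-3p lay at place 468 from the highest among the 1317 miRNAs of its abundance class that were above the floor in both libraries, and mmu-miR-193b-3p at place 1030. Counts of mmu-miR-193a-3p per count of mmu-miR-193b-3p were 0.778 (0.418 to 1.43) and 1.22 (0.676 to 2.21), which overlapped widely.

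The miR-365 arm shared by the 2 clusters was much more abundant, and its ratio lay below 1 on the deposited scale. mmu-miR-365-3p, described as acting with miR-193b in brown adipocyte differentiation, was counted 528 times (138 CPM) in the control-labelled library and 264 times (118 CPM) in the iFIRKO-labelled one. Its ratio was 0.855 (0.734 to 0.993). With TMM scaling it was 0.473, and mmu-miR-193b-3p then also lay below 1, at 0.806. There were 19.6 counts of mmu-miR-365-3p per count of mmu-miR-193b-3p (13.3 to 30.0) in the control-labelled library and 11.5 (7.49 to 18.4) in the iFIRKO-labelled library, with overlapping intervals. Against mmu-miR-193a-3p the values were 25.1 (16.3 to 41.0) and 9.43 (6.37 to 14.5), which did not overlap.

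The 5p arms of these clusters had ratios above 1 that differed in size. mmu-miR-365-1-5p from the chromosome 16 cluster was counted 34 times (8.91 CPM) and 120 times (53.7 CPM), giving 6.03 (4.09 to 9.11). Its ratio ranked 38th from the highest among the 1736 miRNAs with both values above the floor. mmu-miR-365-2-5p from the chromosome 11 cluster was counted 24 times (6.29 CPM) and 20 times (8.95 CPM), giving 1.42 (0.746 to 2.69). Within a library, counts of miR-365-1-5p per count of miR-365-2-5p were 1.42 (0.816 to 2.50) and 6 (3.72 to 10.2), which did not overlap. Counts of mmu-miR-365-3p per count of miR-365-1-5p were 15.5 (11.0 to 22.7) and 2.20 (1.77 to 2.75). The higher miR-365-1-5p was thus not accompanied by a higher mmu-miR-365-3p.

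The neighbouring miR-193 5p arms lay between these values. miR-193b-5p, the chromosome 16 neighbour of miR-365-1, was counted 44 times (11.5 CPM) and 59 times (26.4 CPM), giving 2.29 (1.53 to 3.47). miR-193a-5p was counted 106 times (27.8 CPM) and 103 times (46.1 CPM), giving 1.66 (1.25 to 2.20), which TMM scaling turned to 0.919. The ratio of miR-365-1-5p lay above the intervals of both.

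mmu-miR-455-5p, described as promoting brown adipocyte differentiation, was counted 931 times (244 CPM) in the control-labelled library and 400 times (179 CPM) in the iFIRKO-labelled one. On the deposited scale its ratio was 0.734 (0.652 to 0.827), below 1 but short of 1.5-fold. This was the 12th lowest among 301 miRNAs of its abundance class (mean count 100 to under 1000, both values above the floor). The ratio passed 1.5-fold with miR-148a-3p as reference (0.631) and with TMM scaling (0.406). mmu-miR-455-3p from the same hairpin was counted 341 times (89.3 CPM) and 178 times (79.7 CPM), giving 0.892 (0.740 to 1.07), an interval that included 1. The intervals of the arms overlapped.

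The arms of miR-335, the Mest hairpin, went in opposite directions. mmu-miR-335-5p was counted 1084 times (284 CPM) in the control-labelled library and 418 times (187 CPM) in the iFIRKO-labelled one, giving 0.659 (0.587 to 0.739), the 7th lowest of the 301 miRNAs of its class. It was just past the 1.5-fold limit of 0.667, which lies within its interval. mmu-miR-335-3p was counted 55 times (14.4 CPM) and 73 times (32.7 CPM), giving 2.27 (1.58 to 3.28). This ratio was near the median ratio of 2.01 for miRNAs of its class, those with a mean count from 10 to under 100. With TMM scaling the ratios were 0.365 for the 5p arm and 1.26 for the 3p arm, so they stayed on opposite sides of 1 under each scaling tried. The lower limit of the 3p interval, 1.58, is below the 1.81 by which TMM divides every ratio. Under TMM the direction of the 3p arm is therefore within counting error.

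**Figure D2:**
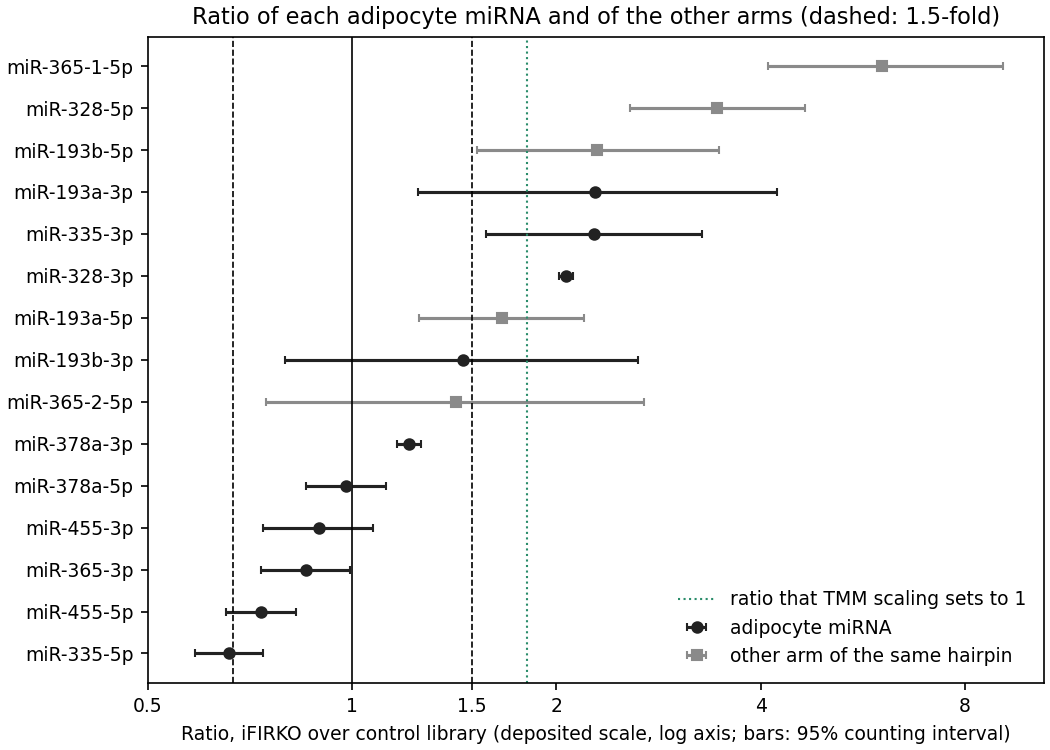
Ratio of the iFIRKO-labelled library to the control-labelled library (log axis) for the 10 miRNAs (black circles) and the 5 other arms of their hairpins (grey squares), with 95% counting intervals. Solid and dashed lines mark 1 and the 1.5-fold limits, and the dotted line marks 1.81, the ratio that TMM scaling sets to 1. miR-365-1-5p lies highest at 6.03 and miR-335-5p lowest at 0.659.

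The share of the 5p arm among the counts of both arms is taken within a library and does not depend on the scaling between libraries. It was computed for the 6 hairpins with 1 listed row for each arm. For miR-335 the 5p share was 95.2% (95% exact interval 93.8 to 96.3) in the control-labelled library and 85.1% (81.7 to 88.2) in the iFIRKO-labelled library. For miR-378a it was 9.20% (8.51 to 9.93) and 7.57% (6.81 to 8.38), and for miR-328 it was 0.558% (0.435 to 0.705) and 0.926% (0.780 to 1.09). These 3 hairpins had intervals that did not overlap, and the rarer arm gained in miR-335 and miR-328 and lost in miR-378a. For miR-455 the 5p shares were 73.2% (70.7 to 75.6) and 69.2% (65.3 to 72.9), for miR-193a 83.5% (75.8 to 89.5) and 78.6% (70.6 to 85.3), and for miR-193b 62.0% (49.7 to 73.2) and 72.0% (60.9 to 81.3), all with overlapping intervals. In both libraries the 5p arm was thus counted more often than the 3p arm for both miR-193 hairpins. For miR-193b in the control-labelled library, with 44 and 27 counts, the interval included equal counts of the arms. Of all 610 hairpins with both arms above the floor, the rarer arm gained without overlap in 12.0% and lost in 5.74%. It gained in 20.9% of the 268 hairpins with at least 100 counts in each library.

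**Figure D3:**
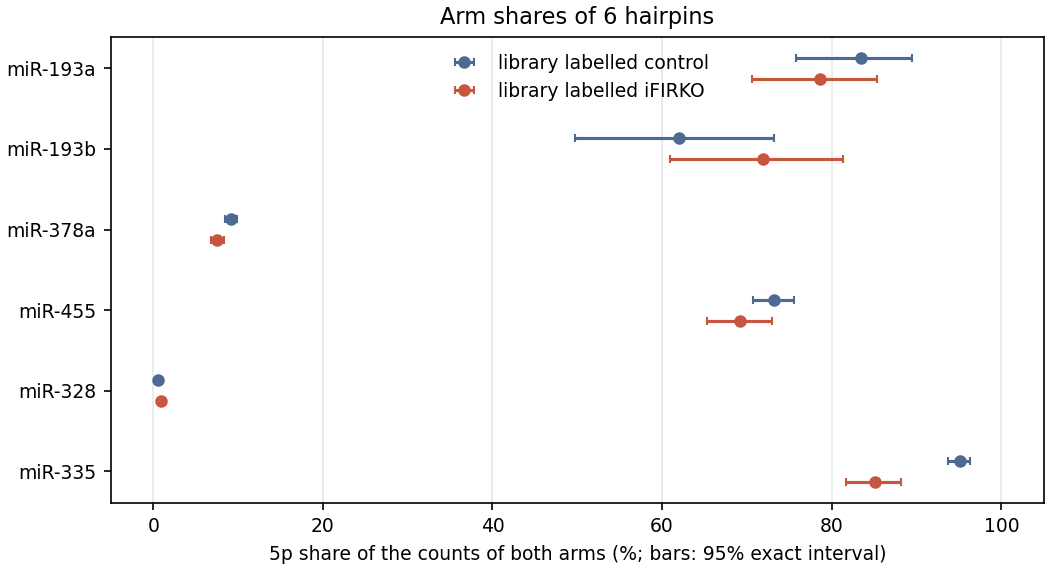
Share of the 5p arm among the counts of both arms (percent) in the control-labelled library (blue) and the iFIRKO-labelled library (red) for 6 hairpins, with 95% exact intervals. miR-335 shows the widest shift among those whose intervals are separate, from 95.2% to 85.1%.

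Set against their abundance classes, the miRNAs of the group lay lower than most in the middle class, mixed in the rare class and high in the top class. The median log2 ratio of the 10 was 0.12, against 0.88 for all miRNAs, and 5 were higher and 5 lower in the iFIRKO-labelled library. Past 1.5-fold there were 3 higher and 1 lower. The group was more abundant than most miRNAs, and 7 of the 10 had a mean count of at least 100. Among these 7 the median log2 ratio was -0.16, with 1 past 1.5-fold in each direction. Among all 420 miRNAs with such a mean count the median was 0.27, with 34.5% higher and 4.29% lower past 1.5-fold. The 5 miRNAs of the group with a mean count from 100 to under 1000 all lay below 1, at 0.659 to 0.980. They were both arms of miR-455, miR-365-3p, miR-378a-5p and miR-335-5p. Of the 302 miRNAs of that class, 236 lay above 1. The mean counts of the 5 ran from 259.5 to 751. Because the ratio fell with abundance, this contrast was not separated from a trend within the class. The 3 rare ones lay above 1, at 1.46 to 2.28, and their median log2 ratio of 1.18 was above the 1.01 of their class. However, they were spread through the 1317 miRNAs of that class above the floor in both libraries. From the highest, mmu-miR-193a-3p lay at place 468, mmu-miR-335-3p at 475 and mmu-miR-193b-3p at 1030. Both with a mean count of 1000 or more (mmu-miR-378a-3p and mmu-miR-328-3p) lay above 1 as well, with a median log2 ratio of 0.66 against -0.07 for their class.

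By counting error alone, the 95% interval of the ratio lay above 1 for 4 of the 10 (mmu-miR-328-3p, mmu-miR-378a-3p, mmu-miR-193a-3p and mmu-miR-335-3p) and below 1 for 3 (mmu-miR-365-3p, mmu-miR-455-5p and mmu-miR-335-5p). Among the 1736 miRNAs with both values above the floor, 62.7% had an interval above 1 and 5.13% had an interval below 1. This compares 2 libraries and not the genotypes.

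**Figure D4:**
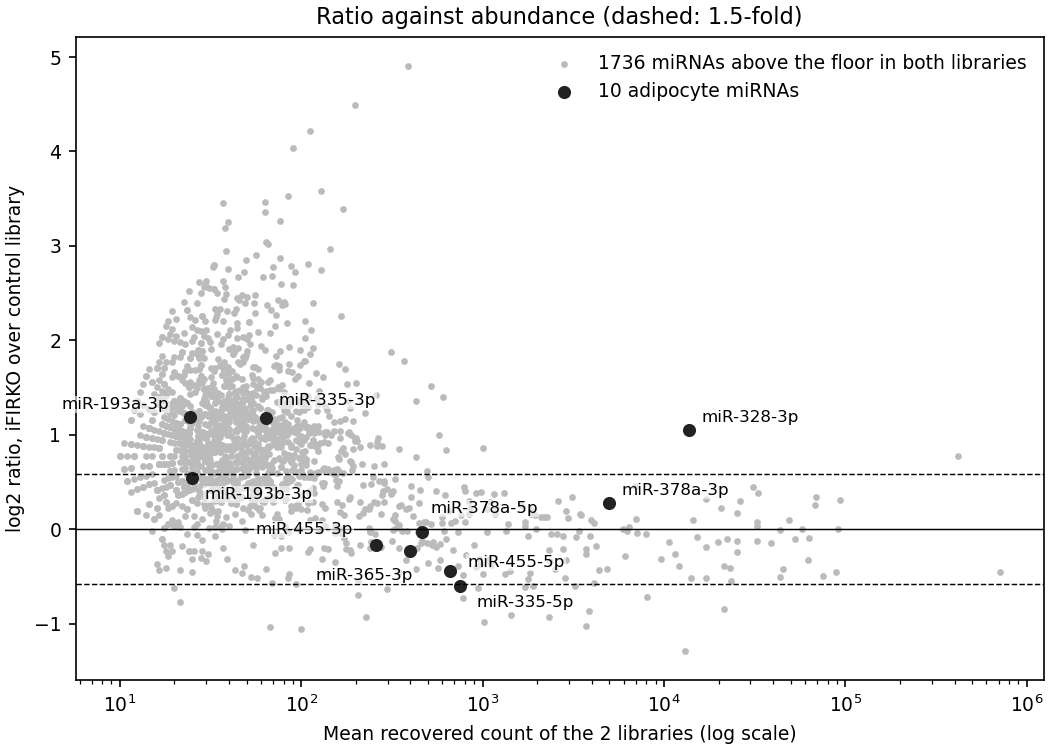
log2 ratio (iFIRKO-labelled library over control-labelled library) against the mean count of both libraries (log axis) for the 1736 miRNAs with both values above the floor (grey) and the 10 adipocyte miRNAs (black, named). Dashed lines mark 1.5-fold. miR-328-3p lies above all miRNAs of a mean count of 1000 or more, and the 5 of the group between 100 and 1000 counts lie below 0.

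A further 31 miRNAs with roles in adipocytes, in 4 lists, were examined. On the deposited scale 1 of the 31 was over 1.5-fold higher (66.3% of all miRNAs), 0 were over 1.5-fold lower (3.03%), and the median log2 ratio was -0.14, with 13 higher and 18 lower. Of these, 19 had a mean count of 1000 or more, and 0 of the 19 were past 1.5-fold in either direction, where 2.54% and 9.32% of all such miRNAs were. Among 10 that promote brown or beige adipocytes the median log2 ratio was -0.13, and ratios ran from 0.721 (miR-30b-5p, which favours thermogenic genes) to 1.37 (miR-129-5p, with 40 and 32 counts). Among 7 that restrain them the median was -0.18, and ratios ran from 0.747 (miR-93-5p) to 1.12 (miR-34a-5p, which dampens FGF21 signalling). miR-133a-3p of this list is also a muscle marker. Among 10 of white adipocyte differentiation and insulin response the median was 0.0064, and ratios ran from 0.762 (miR-143-3p, an adipogenic miRNA) to 1.14 (miR-107-3p, which lowers insulin sensitivity). Among 5 known from adipose tissue EVs the median was 0.096, and ratios ran from 0.865 (miR-146b-5p) to 1.62 (miR-201-5p, with 40 and 38 counts). Within that list miR-99b-5p, an adipose EV-miRNA that acts on hepatic Fgf21, had 1289 and 923 counts and a ratio of 1.22. With TMM scaling 27 of the 31 were over 1.5-fold lower, against 19.5% of all miRNAs. At a mean count of 1000 or more it was 18 of the 19, against 86.4% of all such miRNAs.

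**Figure D5:**
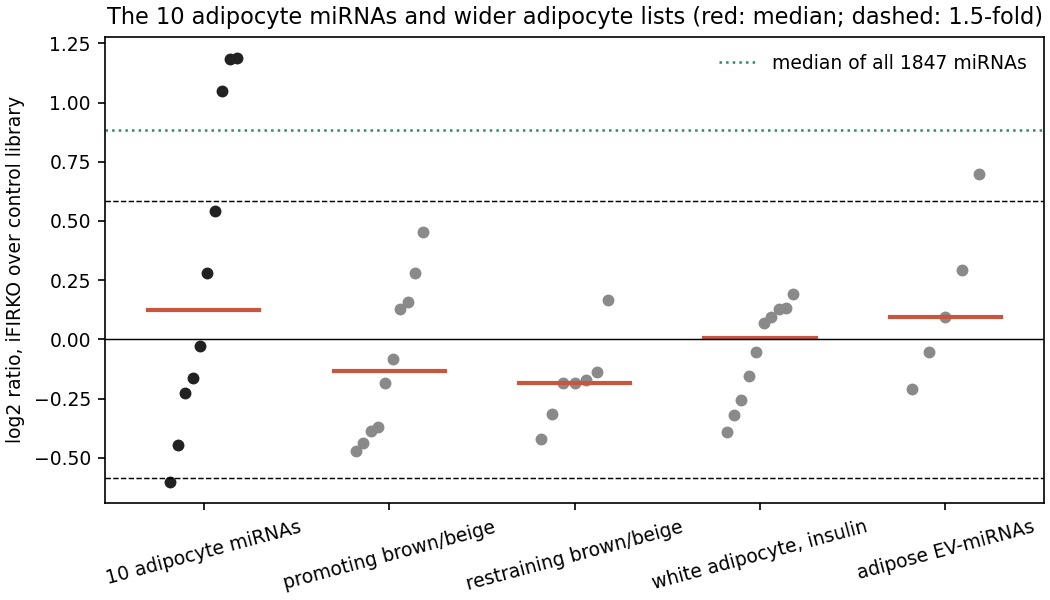
log2 ratio (iFIRKO-labelled library over control-labelled library) of the 10 adipocyte miRNAs (black) and of 4 wider adipocyte lists (grey), 1 point for each miRNA, with red bars at the medians. The dotted line marks the median of all 1847 miRNAs, 0.88, and dashed lines mark 1.5-fold. The medians of the lists lie between -0.18 and 0.12, and the 10 adipocyte miRNAs spread the widest.

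Markers of other cells that release vesicles into blood differed between the libraries too, and their part in the values above was not tested. The 4 liver miRNAs held 12.1% of the control-labelled library and 20.2% of the iFIRKO-labelled library, with ratios from 1.35 to 1.71. The 6 erythroid miRNAs held 2.26% and 1.27%, with ratios from 0.409 to 0.760, and the endothelial miR-126a arms had ratios of 0.684 and 0.710. The 6 muscle and heart miRNAs held 1.12% and 1.02%, with 4 ratios below 1 (miR-1a-3p, miR-133a-3p, miR-133b-3p and miR-499-5p, 0.721 to 0.908) and 2 above (miR-206-3p at 1.30, and miR-208b-3p at 2.04 with 83 and 99 counts). The 4 leukocyte miRNAs had ratios from 0.799 to 0.964 and the 4 stromal ones from 0.726 to 1.39. All of these markers were above the floor in both libraries. mmu-miR-328-3p, at 2.07, lay above all 4 liver markers. mmu-miR-335-5p, at 0.659, lay among the erythroid values, and its interval overlapped those of the endothelial miR-126a arms.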

How the data were processed

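Serum EV total RNA was made into QIAseq miRNA libraries and sequenced on a NextSeq500, and the authors used the GeneGlobe service of Qiagen to process the reads. The submitters' processing notes name the build mm10. Which aligner and miRNA annotation release were used, and whether molecular identifiers were collapsed, is not given in the sources used here. The deposited value is a normalized signal per miRNA. Multiplied by 1 constant per library, taken as its depth, 100% of the values came out whole within 0.1 of a count (beyond the rounding of the deposited digits), and these whole numbers were used as counts. No count from 2 to 9 was present, and the lowest value was treated as a floor.

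Ratios were taken on the deposited scale without a pseudocount. The 95% interval of a ratio came from the exact (Clopper-Pearson) interval of the iFIRKO share of both counts. As alternatives, miRNAs were limited to a mean count of at least 10 or 100, and further settings were a pseudocount of 1 CPM, the floor at 10 counts, a 2-fold limit and 4 scalings (equal totals, median of ratios, miR-148a-3p, and TMM of edgeR 4.0.16 in R 4.3.3). The functions, written in Python 3.11.15 with scipy 1.17.1, were tested on simulated data. Hairpins were placed with GENCODE M21.

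The 10 miRNAs and the lists were chosen with earlier results of these data known. The miRNAs named were the 10, the other arms of their hairpins, and listed miRNAs sharing a seed with the 7 that had a RefSeq sequence. Also named were the highest and lowest ratio of each wider list, and miR-148a-3p, miR-16-5p and miR-122-5p. miR-16-5p had 994113 and 426219 counts. Other names (miR-378b, miR-378c, miR-378d, miR-6377, miR-99b-5p and the markers given by name) were chosen after their values were seen.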

Additional observations from a re-analysis of the deposited data

How the results depend on the processing

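No paired analysis was possible because only 1 library stood for each genotype, so no library could be left out in turn either. Equal totals, the pseudocount and the floor at 10 counts left all 10 ratios within their counting intervals. With the median of ratios, 2 of the 10 were lower past 1.5-fold, their median log2 ratio was -0.14, the wider lists had 0 higher, 6 lower and a median of -0.41, and 113 of all miRNAs were lower. With miR-148a-3p the values were 2, -0.095, 0, 6, -0.36 and 102 in the same order. With TMM, 0 of the 10 were higher and 5 lower with a median of -0.73, the wider lists had 0 higher and 27 lower with a median of -0.99, and all miRNAs had 388 higher and 360 lower with a median of 0.029. Under it 3 of the 10 stayed above 1. For mmu-miR-193a-3p and mmu-miR-335-3p, at 1.26 each, this direction was within counting error. The ratio of miR-193a-5p reversed to 0.919. These shifts follow from 1 factor applied to every ratio. A 2-fold limit left 0 of the 10 lower, 0 of the wider lists higher and 794 of all miRNAs higher. A mean count of at least 10 left 24 of all miRNAs lower, and the floor at 10 counts left 22. A mean count of at least 100 left 1 of the 10 higher with a median of -0.16, 0 of the wider lists higher, and 145 higher and 18 lower of all miRNAs with a median of 0.27, with fewer miRNAs included. Counting intervals below 1, an alternative chosen after seeing the data, gave 3 of the 10 and 89 of the 1736 miRNAs with both values above the floor. Among the 10, depth limits the 3p arms of miR-193a and miR-193b most, with 21 to 28 counts each.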
